A study of Mus musculus with 6 samples.

Results

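Voltage-gated potassium channel genes were examined in the cervical spinal cord of mice with a psoriasis-like dermatitis induced by imiquimod. The members are the protein-coding mouse genes of the Kcna, Kcnb, Kcnc, Kcnd, Kcnf, Kcng, Kcnh, Kcnq, Kcns and Kcnv families, taken by symbol. There were 40 of them among the 54532 genes in the deposited tables. RNA was sequenced from 3 imiquimod-treated and 3 vehicle-treated C57BL/6 mice, with 1 library from each, and errors therefore include variation from mouse to mouse. Imiquimod mice had 50 mg of cream with 5% imiquimod, a Toll-like receptor agonist, spread daily for 2 days on shaved skin of the nape. Vehicle mice received the same amount of cream without it. Both groups thus shared shaving and daily cream, and the labels name no engineered allele in either. The sources used here give neither sex nor age. The whole cervical cord was taken, so every value is an average over its cell types.

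Voltage-gated potassium channels open when a membrane depolarises and let potassium leave the cell, which ends the action potential and sets how soon the next one can follow. Kv1 channels sit along axons beside the nodes of Ranvier and near the axon initial segment, Kv3 channels let neurons fire fast trains, Kv4 channels carry a transient A-type current in dendrites and cell bodies, and Kv7 channels carry the slow M-current. Kv5, Kv6, Kv8 and Kv9 subunits form no working channel alone, but join Kv2 subunits and change how these open and close. The Kcnh genes encode the eag, erg and elk channels, grouped here as Kv10 to Kv12.

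Levels are FPKM, that is fragments per kilobase of exon scaled for library size, so they can be compared between genes. Changes are log2 differences, imiquimod minus vehicle, of FPKM + 0.1, with the standard error (SE) of a limma fit over all genes, and p-values were adjusted over all 15946 genes tested (Benjamini-Hochberg, threshold 0.05). A gene was tested if its mean over the 6 libraries was at least 0.5 FPKM. Of the 40 channel genes 33 passed that filter.

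Channel genes lower in imiquimod cords numbered 4, among them Kcna2, Kcnc1 and Kcnd1, and Kcng2 was higher. The remaining 28 of the 33 tested did not pass the threshold. The share called, 5 of 33 (15.2%), was close to the 14.3% called among all genes tested. By direction, 4 channel genes were lower (12.1%, against 5.54% of all genes) and 1 was higher (3.03%, against 8.79%). The median log2 change was -0.20 over the 33 channel genes and -0.0061 over all genes. Marker lists of neurons (-0.22), astrocytes (-0.24) and oligodendrocytes (-0.23) had similar medians, so a median of this size was not particular to channel genes. Those of microglia (0.36) and endothelium (0.66) were above 0. The channel median was -0.059 without imiquimod replicate 1, -0.11 with a pseudocount of 1, -0.12 with voom and quality weights, and -0.052 when genes under the filter were kept. The estimate was below 0 for 20 channel genes (60.6%), against 50.9% of all genes. Every imiquimod library lay below every vehicle library in 14 of the 33 (42.4%, against 18.1% of all genes), and above every one in 7 (21.2%, against 19.7%). These are bulk tissue values, in which fewer cells of a type and less RNA per cell cannot be told apart.

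Groups that did not overlap numbered 21 of 33 (63.6%) among channel genes and 37.9% among all genes. An unadjusted limma p under 0.05 was found for 14 of the 33, and for 30.2% of all genes.

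None of the 5 calls held in all 6 fits that left 1 library out. Without imiquimod replicate 1, 3 channel genes were lower and 0 higher (4.09% and 5.84% of all genes). Without imiquimod replicate 2, 9 were lower and 1 was higher (8.17% and 10.3% of all genes). Without imiquimod replicate 3, 0 were lower and 0 higher (2.7% and 5.25%). With a vehicle library left out, 0 channel genes were lower, against 1.17%, 1.61% and 1.57% of all genes for replicates 1, 2 and 3. In those same fits 0, 0 and 1 were higher, against 4.06%, 4.74% and 4.63%. Where these limma counts were 0, the unadjusted p was under 0.05 for 8 to 10 lower and 1 to 2 higher members.

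Other choices in the fit also moved the counts. Removing the dependence of each library on exon length and GC gave 8 lower channel genes and 1 higher (9.41% and 7.72% of all genes). In that fit 45.1% of all calls were of higher genes, against 61.3% without it. The voom fit on recovered fragments gave 7 lower and 2 higher (6.7% and 8.94%), and with quality weights 2 higher (9.53%). With no filter on low values 0 were lower and 0 higher (1.6% and 3.4%). Scaling to equal FPKM sums left 0 lower (4.47%), and so did limma without its trend (3.77%), with an unadjusted p under 0.05 for 11 to 12 lower members in these 3 fits.

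**Figure D1:**
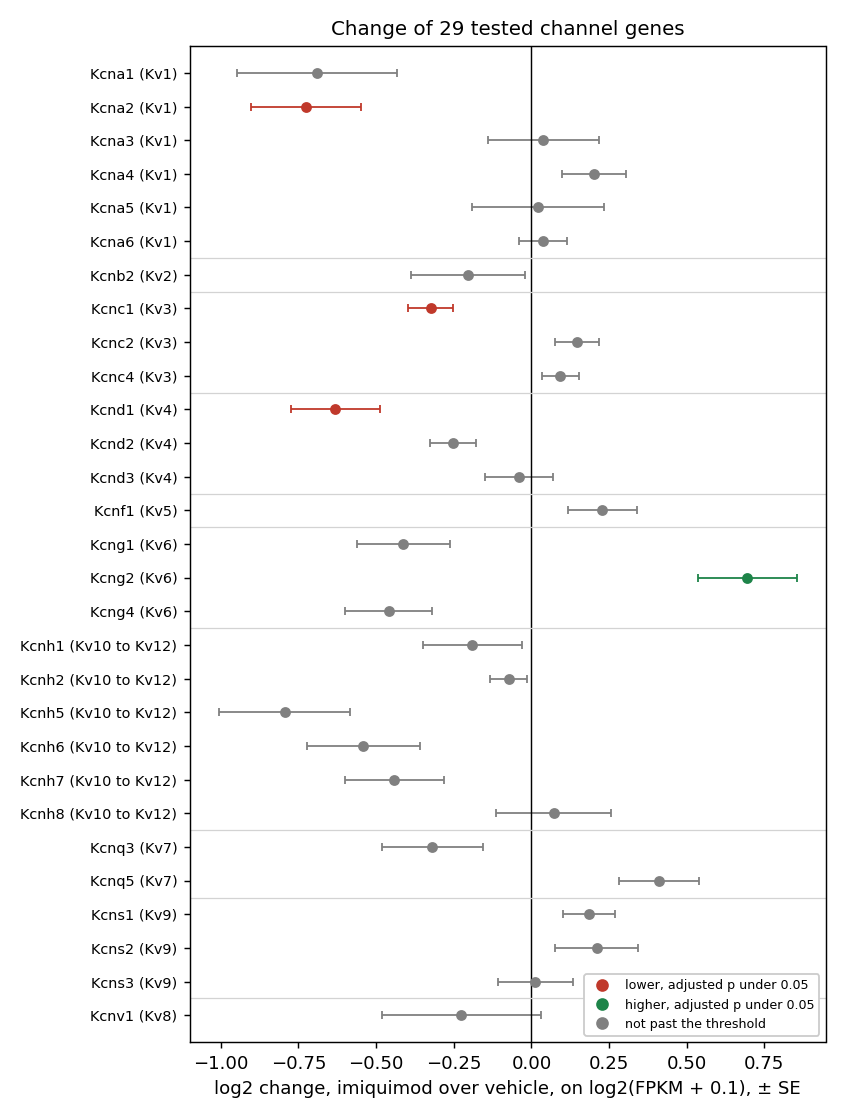
Change of 29 tested channel genes, grouped by subfamily from top to bottom. Points are log2 changes of FPKM + 0.1, imiquimod over vehicle, bars are ± SE, and colour marks the 3 lower genes, the 1 higher gene and the 25 that did not pass the threshold.

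Summed over the 40 genes, channel transcripts came to 347, 456 and 384 FPKM in the imiquimod libraries and to 503, 518 and 477 FPKM in the vehicle libraries. The imiquimod sums were all below the vehicle sums, and imiquimod replicate 1 was the lowest. A few genes made up most of this total. The 7 genes with a vehicle mean of at least 20 FPKM held 70.7% to 74.4% of it in imiquimod cords and 75.3% to 77.4% in vehicle cords. Of those 7, picked by their values, 6 had an estimate below 0 and 2 were called lower, where 11.2% of the 2596 genes at that level were called lower. Their median log2 change was -0.46, against -0.12 for the other 26 channel genes and -0.04 for all genes of that level.

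**Figure D2:**
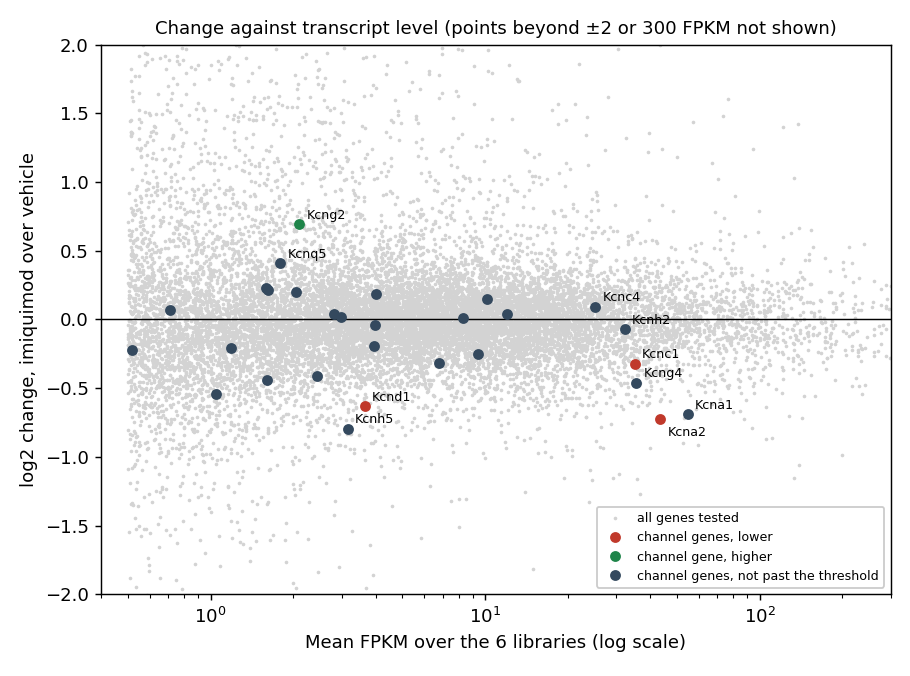
Log2 change, imiquimod over vehicle, against mean FPKM over the 6 libraries on a log axis. Grey points are all genes tested and large points 29 channel genes, of which Kcna1, Kcna2, Kcnc1 and Kcng4 lie below 0 at the right, while Kcnc4 and Kcnh2 lie near 0 at similar levels.

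Kcna2 encodes a Kv1 subunit of juxtaparanodal axon membrane and lies on chromosome 3 (GRCm38, 107101146 to 107115005, plus strand). Its level was 25.0, 42.5 and 31.9 FPKM in imiquimod cords, against 55.3, 54.8 and 50.9 FPKM in vehicle cords. The groups did not overlap, and the imiquimod libraries were the more spread out. The means were 33.1 ± 8.82 FPKM in imiquimod and 53.7 ± 2.39 FPKM in vehicle cords (SD, n = 3 each), and Kcna2 fell by 0.73 ± 0.18 on the log2 scale (limma adjusted p = 0.0382). Its adjusted p ran from 0.056 to 0.128 without imiquimod replicate 1, imiquimod replicate 3 or any one vehicle library.

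Kcna1, the usual partner of Kcna2 in axonal channels, showed a similar picture with a wider spread. Kcna1 stood at 27.1, 59.2 and 43.1 FPKM in imiquimod cords, against 65.3, 72.2 and 61.8 FPKM in vehicle cords. All imiquimod values were below all vehicle values, but imiquimod replicate 2 came within a few FPKM of the lowest vehicle library. The log2 change was -0.69 ± 0.26 (limma adjusted p = 0.123). Leaving out imiquimod replicate 2 made that adjusted p 0.0235.

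The other Kv1 genes did not pass, and none of their estimates was below 0. Kcna6, a Kv1 subunit of the nervous system that neighbours Kcna1 and Kcna5 on chromosome 6, had 12.2 ± 0.873 FPKM in imiquimod cords and 11.9 ± 0.66 FPKM in vehicle cords, with a 95% interval of the log2 change from -0.15 to 0.22. Of its exon bases, 39.6% overlap Gm26673 on the opposite strand, and without a known strand setting their reads cannot be told apart. Kcna3, known from T cells and microglia, had 2.14, 3.10 and 3.38 FPKM in imiquimod cords, against 3.03, 2.45 and 2.80 FPKM in vehicle cords. Those values overlapped. Beside this, 4 of 5 tested T and NK cell markers were higher, with summed levels of 21.8 to 48.2 FPKM in imiquimod cords and 3.29 to 4.54 FPKM in vehicle cords. Of 10 microglia markers 4 were higher and 1 was lower. Among all genes tested, 8.79% were higher and 5.54% lower. The 95% interval of the Kcna3 log2 change ran from -0.38 to 0.46, and the part of those cells in its level was not tested. Kcna4 (0.20 ± 0.10) and Kcna5 (0.02 ± 0.21), a Kv1 subunit of heart and vessel muscle, did not pass either. Kcna3, Kcna2 and Kcna10 lie next to each other on chromosome 3 (107036169 to 107195721), where Kcna2 passed, Kcna3 did not and Kcna10 was too low to test.

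Kcnc1, a subunit of fast-spiking neurons on chromosome 7 (46396497 to 46438704, plus strand), was 28.7, 32.7 and 32.0 FPKM in imiquimod cords, against 39.3, 40.5 and 37.1 FPKM in vehicle cords. The groups did not overlap, and each spread little. Kcnc1 fell by 0.32 ± 0.07 on the log2 scale (limma adjusted p = 0.0303), which is a fall by 20.1% of the vehicle mean. Its call held without imiquimod replicate 1 or 2, and the adjusted p was 0.0601 to 0.119 without imiquimod replicate 3 or any one vehicle library.

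Kcnc2 and Kcnc4 had estimates above 0 and did not pass. Kcnc2, found in fast-spiking inhibitory neurons, was 11, 10.8 and 10.1 FPKM in imiquimod cords, against 9.0, 9.98 and 9.88 FPKM in vehicle cords (0.15 ± 0.07, limma adjusted p = 0.214). Its groups did not overlap. Kcnc4, a Kv3 subunit with a faster inactivating current, averaged 26.0 ± 1.12 FPKM in imiquimod cords and 24.3 ± 0.676 FPKM in vehicle cords, with a 95% interval of the log2 change from -0.05 to 0.24. Whether Kcnc1 differs in its change from Kcnc2 and Kcnc4 was not tested.

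Promoter windows are shown for Kcna2 and Kcnc1, called lower, and for Kcnc4, also above 20 FPKM and not called. They are placed by RefSeq starts, and 2 of them lie inside the gene bounds used here. The Kcna2 gene begins at 107101146, before its window, and the minus-strand Kcnc4 gene begins at 107459552, also before its window. Those 2 windows can therefore hold transcribed sequence throughout. Each holds the 250 bases before and 50 bases after the start in RefSeq (GRCm38.p6), read 5′ to 3′ on the gene's strand, with GC boxes (GGGCGG on either strand) in capitals.
Kcna2, chr3:107101317-107101616, plus strand: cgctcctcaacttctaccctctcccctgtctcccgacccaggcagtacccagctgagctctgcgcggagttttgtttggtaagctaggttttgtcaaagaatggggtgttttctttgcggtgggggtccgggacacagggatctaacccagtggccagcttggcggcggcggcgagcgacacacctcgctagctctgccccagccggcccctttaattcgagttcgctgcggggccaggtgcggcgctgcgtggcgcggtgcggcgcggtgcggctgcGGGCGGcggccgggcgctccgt
Kcnc1, chr7:46396218-46396517, plus strand: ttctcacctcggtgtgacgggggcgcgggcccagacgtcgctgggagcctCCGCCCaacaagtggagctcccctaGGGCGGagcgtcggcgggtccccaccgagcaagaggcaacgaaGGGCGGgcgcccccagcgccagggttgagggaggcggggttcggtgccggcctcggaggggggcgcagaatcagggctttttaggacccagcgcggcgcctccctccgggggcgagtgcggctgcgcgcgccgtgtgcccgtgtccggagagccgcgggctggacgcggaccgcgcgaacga
Kcnc4, chr3:107458849-107459148, minus strand: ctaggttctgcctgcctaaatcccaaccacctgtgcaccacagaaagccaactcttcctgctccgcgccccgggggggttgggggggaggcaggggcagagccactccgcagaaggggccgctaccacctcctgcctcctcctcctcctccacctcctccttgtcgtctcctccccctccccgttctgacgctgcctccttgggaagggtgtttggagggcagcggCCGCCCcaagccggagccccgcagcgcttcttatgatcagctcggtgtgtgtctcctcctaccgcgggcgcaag

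The Kcnc1 window held 3 GC boxes, and those of Kcna2 and Kcnc4 held 1 each, so the motif was present in both called genes and in the uncalled one. GC content was 74.7% in the Kcnc1 window and 66.7% in each of the others. RefSeq windows were matched for 25 of the 40 channel genes, 30 windows in all. Shares count windows, and some genes have more than 1. Of the 30 windows, 18 (60.0%), of 17 genes, held a GC box, against 35.7% of 32851 mouse promoters of the same length. The TATA box (TATAAA) was in none of the 30 and in 13.6% of all. The interferon response core (GAAA and GAAA with any 2 bases between) was searched on both strands. It was in 4 windows of 3 genes, Kcna7, Kcnc2 and Kcnd2 (13.3%, against 3.44% of all), and in none of the 3 shown. Kcna7 was too low to test, and Kcnc2 and Kcnd2 did not pass the threshold. The cAMP response element (TGACGTCA) and the NRF1 site (GCGC and TGCGC with any 1 base between) were in none of the 30, against 1.79% and 4.60% of all, and the E-box (CACGTG) was in 1 window, of Kcnh4, against 7.15%. None of the 6 motifs contains another, and a match describes a sequence, not a bound site.

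Among the A-type Kv4 genes, Kcnd1 passed. It lies on the X chromosome (7822289 to 7838280, plus strand) and was 2.32, 3.40 and 2.85 FPKM in imiquimod cords, against 4.64, 4.57 and 4.09 FPKM in vehicle cords. All imiquimod values were below all vehicle values. Kcnd1 fell by 0.63 ± 0.14 on the log2 scale (limma adjusted p = 0.0306). The adjusted p was 0.0494 without imiquimod replicate 1, 0.0109 without imiquimod replicate 2, and 0.0726 to 0.114 without any other library. Kcnd2, the most abundant Kv4 gene and known for dendritic A-type current in dorsal horn neurons, had 8.17, 8.93 and 8.76 FPKM in imiquimod cords, against 10.6, 9.56 and 10.7 FPKM in vehicle cords. Its groups did not overlap either, and its log2 change of -0.25 ± 0.07 did not pass (limma adjusted p = 0.0651). Kcnd3, the third Kv4 gene, had -0.04 ± 0.11.

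Among the Kv7 genes, Kcnq3, an M-current subunit, had a log2 change of -0.32 ± 0.16 and overlapping groups. Kcnq5, another M-current subunit, had an estimate above 0, at 1.83, 2.06 and 2.29 FPKM in imiquimod cords, against 1.47, 1.41 and 1.68 FPKM in vehicle cords. Those groups did not overlap, and the log2 change of 0.41 ± 0.13 did not pass (limma adjusted p = 0.0813). With voom on recovered fragments Kcnq5 passed (0.0483), and likewise with the length and GC trend removed (0.0395).

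Kcng2, a silent Kv6 subunit on chromosome 18 (80294546 to 80364254, minus strand), was the 1 channel gene called higher. It stood at 2.99, 2.24 and 2.62 FPKM in imiquimod cords, against 1.57, 1.33 and 1.85 FPKM in vehicle cords. Every imiquimod value was above every vehicle value. Kcng2 rose by 0.70 ± 0.16 on the log2 scale (limma adjusted p = 0.032), with means of 2.62 ± 0.371 FPKM in imiquimod and 1.58 ± 0.26 FPKM in vehicle cords (SD, n = 3 each). These levels rest on 518 recovered fragments over the imiquimod libraries and 260 over the vehicle libraries. With the length and GC trend removed the adjusted p was 0.0531. Of its exon bases 9.10% overlap D330025C20Rik on the opposite strand, which was at 0.117 FPKM in imiquimod and 0.0642 FPKM in vehicle cords.

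Kcng4, the Kv6 gene with the highest level, had 28.8, 36.5 and 24.9 FPKM in imiquimod cords, against 42.6, 42.6 and 37.6 FPKM in vehicle cords. The groups did not overlap but came close between imiquimod replicate 2 and vehicle replicate 3. Its log2 change was -0.46 ± 0.14 (limma adjusted p = 0.0721, and 0.0105 with imiquimod replicate 2 left out). Kcng1 had -0.41 ± 0.15 and did not pass. Of the Kv2 genes, which encode the delayed rectifiers that silent subunits join, Kcnb2 had -0.21 ± 0.18 and did not pass.

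The remaining silent subunits were low to moderate, and none passed. Kcns3, with the highest Kv9 level, was 8.89, 9.17 and 6.95 FPKM in imiquimod cords, against 8.09, 8.91 and 7.66 FPKM in vehicle cords, with overlapping groups and a log2 change of 0.01 ± 0.12. Kcns1, known from large sensory neurons, was 4.35, 4.17 and 4.27 FPKM in imiquimod cords, against 3.75, 4.03 and 3.45 FPKM in vehicle cords (0.19 ± 0.08, limma adjusted p = 0.186). Its groups did not overlap. Kcnf1, the Kv5 gene, was 1.83, 1.68 and 1.65 FPKM in imiquimod cords, against 1.4, 1.5 and 1.45 FPKM in vehicle cords (0.23 ± 0.11, limma adjusted p = 0.219). Its groups did not overlap either. Kcns2 had 0.21 ± 0.13. Kcnv1, of the Kv8 pair, was near the filter at 0.571, 0.448 and 0.399 FPKM in imiquimod cords, against 0.554, 0.539 and 0.602 FPKM in vehicle cords (-0.23 ± 0.26, limma adjusted p = 0.598). Its groups overlapped.

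Of 6 tested Kcnh genes 5 had an estimate below 0, and none passed. Kcnh5, an eag channel, came nearest. It was 1.55, 2.62 and 2.81 FPKM in imiquimod cords, against 3.79, 3.95 and 4.25 FPKM in vehicle cords. Those values did not overlap, and the log2 change of -0.79 ± 0.21, the largest in size among the 33, had a limma adjusted p of 0.0501. It passed with a pseudocount of 1 (0.0425) and with voom on recovered fragments (0.0283). The adjusted p was 0.0265 without imiquimod replicate 1, 0.0481 without imiquimod replicate 2 and 0.0529 to 0.147 without any other library. Kcnh6 (-0.54 ± 0.18) and Kcnh7 (-0.44 ± 0.16), both erg channels, also had groups that did not overlap, each with an unadjusted p under 0.05. Kcnh2, the erg channel known for cardiac repolarisation, was the most abundant Kcnh gene, at 30.9, 32.6 and 31.0 FPKM in imiquimod cords, against 33.7, 34.1 and 31.6 FPKM in vehicle cords. Those overlapped, with a 95% interval of the log2 change from -0.21 to 0.07. Kcnh1 (-0.19 ± 0.16) and Kcnh8 (0.07 ± 0.18) did not pass. Smaller overlaps with a gene on the opposite strand were 4.57% of exon bases for Kcnh7, 3.08% for Kcnq5, 2.96% for Kcnq1 and 1.72% for Kcnd3. The partner of Kcnh7, Gca, was at 4.15 FPKM in imiquimod and 5.32 FPKM in vehicle cords. Kcnh7 itself was lower, at 1.36 and 1.86 FPKM, and the part of Gca reads in its change was not tested.

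**Figure D3:**
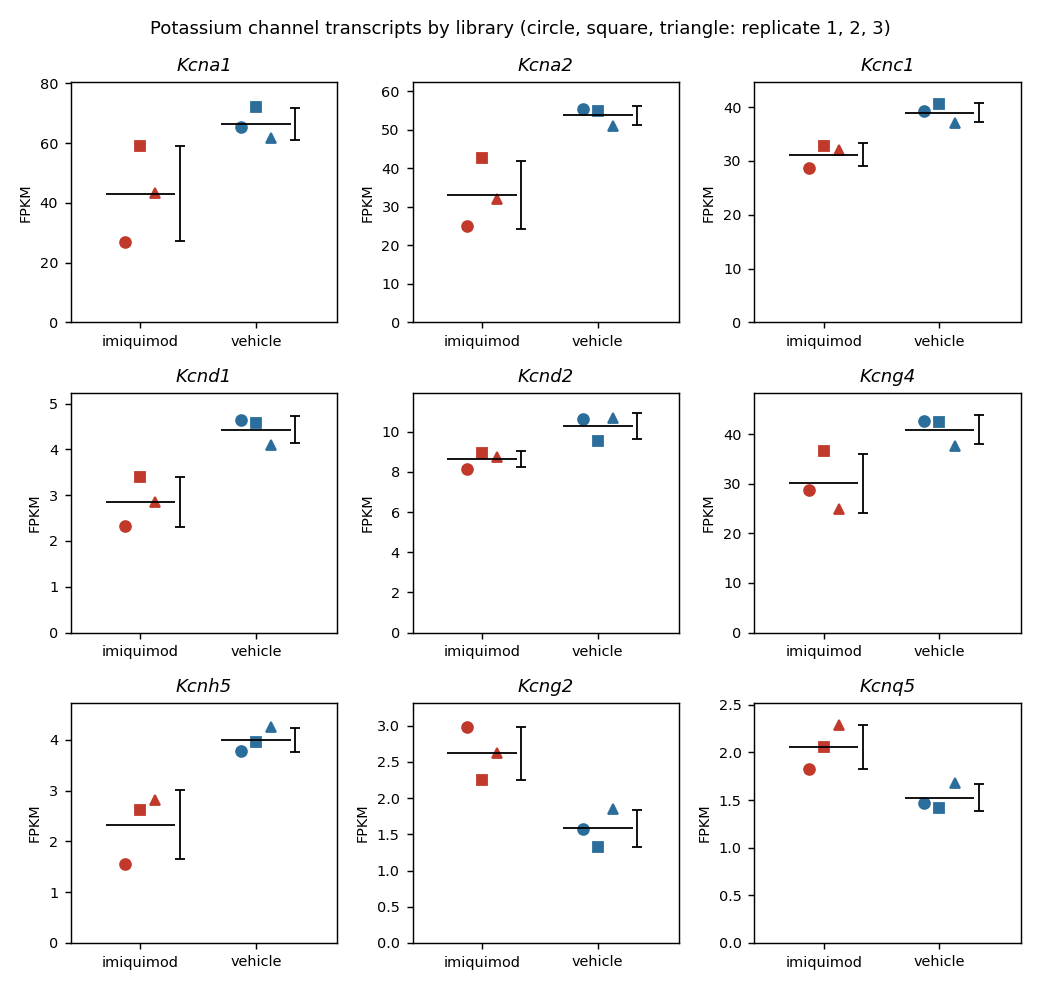
FPKM of 9 channel genes in each library, imiquimod left and vehicle right; horizontal lines are group means and bars ± SD (n = 3 each). Groups do not overlap in any panel, but the panels are a selection, and groups overlapped in 12 of the 33 tested genes. Imiquimod replicate 2 (square) is the highest imiquimod library for Kcna1, Kcna2, Kcnc1, Kcnd1, Kcnd2 and Kcng4.

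The 7 genes under the filter were Kcna7, Kcna10, Kcng3, Kcnh3, Kcnh4, Kcnq1 and Kcnv2. Kcnq1, a channel of heart and epithelia, was the highest of them, at 0.592, 0.612 and 0.396 FPKM in imiquimod cords, against 0.235, 0.492 and 0.212 FPKM in vehicle cords. Its groups overlapped, and it had 144 recovered fragments over the imiquimod libraries and 69 over the vehicle libraries. Kcna10 had 7 fragments over the imiquimod libraries and 0 over the vehicle libraries, and was listed at 0 in each vehicle library. Kcna7, a channel of skeletal muscle and heart, had 1 fragment over the imiquimod and 1 over the vehicle libraries. Kcnv2, a subunit of photoreceptors, had 3 in imiquimod and 4 in vehicle libraries. Kcng3, a silent subunit, had 29 in imiquimod and 24 in vehicle libraries. The elk channel genes were Kcnh4, with 35 in imiquimod and 24 in vehicle libraries, and Kcnh3, with 79 in imiquimod and 50 in vehicle libraries. These 7 genes were too low for the fit and were not tested.

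The imiquimod libraries did not share the pattern equally. Imiquimod replicate 1 was the lowest of all 6 libraries for 19 of the 33 tested genes, imiquimod replicate 3 for 4 and imiquimod replicate 2 for 0. The median deviation of the 33 genes from the vehicle mean was -0.35 in imiquimod replicate 1, -0.09 in replicate 2 and -0.12 in replicate 3, on the log2 scale. Over all genes tested the same medians were 0.01, -0.00054 and -0.00189. Recovered depth ran from 21242415 to 23200996 fragments in imiquimod and from 18174411 to 20672881 in vehicle libraries (two-sided exact permutation p = 0.1, the smallest possible with 3 against 3), and the part of depth in these results was not tested.

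**Figure D4:**
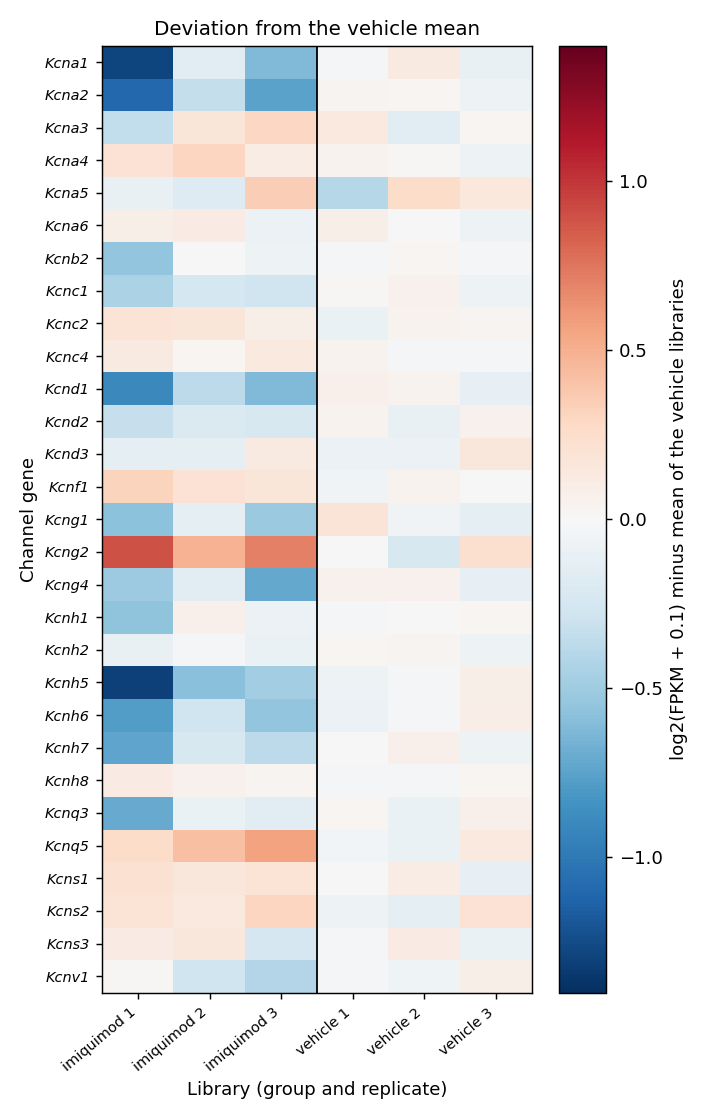
Deviation of 29 tested channel genes (rows) from the mean of the vehicle libraries, as log2(FPKM + 0.1), in each library (columns). Blue is lower and red higher; imiquimod replicate 1 holds the deepest blue cells, and Kcng2 and Kcnq5 are red in all imiquimod libraries.

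The tissue carried its defining markers, with neuron, astrocyte and oligodendrocyte lists all measured. Of 18 neuron markers 2 were lower and 1 higher, and their summed level was 1617 to 2065 FPKM in imiquimod and 2167 to 2310 FPKM in vehicle cords, lowest in imiquimod replicate 3. The share of the 18 called, 3 in all, is close to the 14.3% of all genes. Of 9 tested cholinergic and motor neuron markers 5 were lower (64.4 to 104 FPKM summed in imiquimod, 119 to 128 FPKM in vehicle cords). Of 6 tested Schwann cell markers 1 was lower, and of 8 oligodendrocyte markers 1 was lower. Among all genes tested, 5.54% were lower. Schwann cell markers summed to 45.6 to 200.3 FPKM in imiquimod and 194 to 274 FPKM in vehicle cords, with overlapping ranges, and oligodendrocyte markers to 5467 to 7027 FPKM in imiquimod and 8025 to 8611 FPKM in vehicle cords. Of 8 sensory ganglion markers 6 averaged under 0.1 FPKM and Mrgprx1 was listed at 0 in every library. The part of these marker levels in the channel results was not tested.

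Among 12 tested accessory subunits, which work with these channels, 2 were lower and 1 was higher, where 5.54% of all genes were lower and 8.79% higher. Kcnab2 (-0.36 ± 0.09) and Kcnab3 (-0.33 ± 0.06), cytoplasmic beta subunits of Kv1 channels, were at 90.5 and 28.7 FPKM in imiquimod cords, against 116 and 36.2 FPKM in vehicle cords. The higher one was Kcne1l, a single-pass subunit, at 19.2 FPKM in imiquimod and 11.9 FPKM in vehicle cords (0.67 ± 0.15). The median change of the list was 0.04. Kv4 partners such as Dpp6 (0.11 ± 0.06) and Kcnip3 (0.08 ± 0.07) did not pass.

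Of 16 genes of axonal anchoring and scaffolding 4 were lower, against 5.54% of all genes, and the median change of the 16 was -0.18. Those lower were Lgi2 (-0.45 ± 0.09), a secreted ligand of Adam22, Adam22 itself (-0.51 ± 0.10), a membrane protein in Kv1 complexes, Ank3 (-0.76 ± 0.18), which encodes ankyrin-G of the initial segment and nodes, and Epb41l3 (-0.40 ± 0.10), a cytoskeletal linker of paranodal and juxtaparanodal membrane. Cntnap2, the juxtaparanodal adhesion protein that holds Kv1 channels in place, had 0.01 ± 0.09 and did not pass. Among 28 tested potassium channel genes of other families, 2 were lower and 2 higher, a share called of 4 in 28 that is no larger than the 14.3% of all genes. The median of the 28 was -0.26, against -0.0061 over all genes. Kcnj10, the inward rectifier of glia, was 108 FPKM in imiquimod and 177 FPKM in vehicle cords (-0.72 ± 0.08, limma adjusted p = 0.00308). Of 10 astrocyte markers 2 were lower, Slc1a2 (-0.70 ± 0.10) and Gja1 (-1.10 ± 0.06), and 1 was higher, Aldh1l1 (0.76 ± 0.08). Gfap (0.23 ± 0.09) and Sox9 (0.27 ± 0.09) had estimates above 0 and did not pass. The astrocyte list summed to 1588 to 1886 FPKM in imiquimod and 1950 to 2055 FPKM in vehicle cords. The leak channel gene Kcnk1 was lower too (-0.27 ± 0.06). Kcnk6 (1.06 ± 0.18) and Kcnj8 (0.65 ± 0.16), a vascular inward rectifier, were higher. Of 7 endothelial markers 4 were higher and 1 was lower, with 134 to 145 FPKM summed in imiquimod and 76.9 to 80.6 FPKM in vehicle cords. Among all genes tested, 8.79% were higher and 5.54% lower. The part of astrocytes or endothelium in these channel levels was not tested. The pacemaker channel genes Hcn2 (-0.21 ± 0.09), Hcn3 (0.02 ± 0.11) and Hcn4 (-0.05 ± 0.09) did not pass. Over the accessory, anchoring and other channel lists together, 8 genes were lower and 3 higher. The lower count became 17 without imiquimod replicate 2, 3 without imiquimod replicate 3, 2 without vehicle replicate 1 and 1 without vehicle replicate 2 or 3, and the higher count became 1 without any one vehicle library.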

How the data were processed

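RNA-seq tables of 6 cervical spinal cords were used, 3 imiquimod and 3 vehicle. The deposited values are taken as FPKM, 1 per Ensembl gene and library; the file headers name no unit, which was read from the values. HISAT2 2.0.5, featureCounts 1.5.0-p3, DESeq2 1.16.1 and mm10 are named in the submitters' processing notes without roles. The sources used here do not give the annotation release, strand setting or handling of multi-mapped reads. Symbols came from a names table (54409 of 54532 identifiers), and coordinates, exon lengths and GC content from GENCODE M21 on GRCm38 (54495). In each library FPKM times exon length was a whole multiple of a fixed step: of values under 1000 fragments 97.4% to 97.6% were whole within 0.05, and all values of the 40 members were. The step totals were proportional to median-of-ratios factors (spread 0.00895%), so no further scaling was applied.

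limma 3.58.1 (R 4.3.3) with a mean-variance trend was run on log2(FPKM + 0.1) over genes with a mean of at least 0.5 FPKM. On 5 simulated sets (15937 genes, 200 changed) it recovered 88.8% of 2-fold and 95.8% of 4-fold changes, and 5.13% of calls were false. The simulation gave every gene and library the same fixed dispersion. The real libraries were unequal, with voom quality weights from 0.34 (imiquimod replicate 1) to 2.30 (vehicle replicate 1). These shares therefore describe the simulated sets and may not hold for the real data. Other steps used SciPy 1.17.1, NumPy 2.4.6 and pandas 2.3.3 in Python 3.11.15, with matplotlib 3.10.9 for plots. Alternatives changed pseudocount, filter, scaling, trend, length and GC correction, block, count weighting (voom) and libraries. Members and lists were chosen with earlier results of these data known. Full values are given for members past the threshold, for the 3 smallest p in each direction beyond these, and for the most abundant member of each family; other genes in the text were added after their values were seen. Some members that the rule names are not reported here singly, but are counted. From the other lists up to 4 called genes per direction are named. Lists are described by counts and medians only. Fragment numbers cover counting error only.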

Additional observations from a re-analysis of the deposited data

How the results depend on the processing

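In 18 alternatives each, the log2 changes of Kcna2, Kcnc1, Kcnd1 and Kcng2 kept their direction, and their calls were kept in 9, 10, 10 and 11. The counts of channel genes (4 lower, 1 higher) became 0 and 0 with no filter on low values, 0 lower with equal FPKM sums and with limma without trend, 7 lower and 2 higher with voom, 2 higher with voom and quality weights, and 8 lower with the length and GC trend removed. Where these limma counts were 0, unadjusted p was under 0.05 for 11 to 12 lower members and 3 higher ones. Leaving out 1 library gave 0 to 9 lower and 0 to 1 higher. With the replicate number as a block, 1 of the 33 channel genes was lower (Kcnh5) and 1 higher. Over all 15946 genes tested, that fit called 442 lower and 890 higher. With the block and the length and GC correction 5 channel genes were lower, beside 875 of the 15946 genes. In that fit 0 channel genes were higher (2 by unadjusted p), beside 878 of the 15946 genes. The labels give the numbers no shared source. Deviations of same-numbered libraries from their group means correlated at 0.039, -0.101 and -0.033, and those of unlike-numbered libraries at -0.118 to 0.152. With 3 libraries per group, such deviations are tied to each other and cannot decide whether same-numbered libraries share a source. Over all genes, 1402 higher and 884 lower became 508 lower with no filter, 1501 lower with the length and GC correction, 890 higher and 442 lower with the block, 878 higher with both, and 648 to 1648 higher and 186 to 1302 lower without 1 library. The accessory, anchoring and other channel lists (3 higher, 8 lower) gave 1 higher and 5 lower with no filter and without trend, 1 higher with the length and GC correction without and with the block, 4 lower with the block, and 1 to 3 higher and 1 to 17 lower without 1 library. Kcns3, near 0, had -0.094 with the length and GC correction, also with the block, and -0.061 to 0.14 without 1 library. The cause of these shifts was not tested, except that fits without 1 library hold fewer samples. Leaving 1 library out leaves 2 in its group. Channel genes under 0.5 FPKM were not fitted, and the part of depth in their low values was not tested.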
